A study of Mus musculus with 2 samples.

Results

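Claudins and the proteins that build, anchor and position tight junctions were examined in cells of the mouse otocyst, the epithelial vesicle that becomes the inner ear. The 35 genes were chosen by family and function, and were found as probe sets whose annotation names 1 gene only. They are 35 of 18194 genes so named, and 69 probe sets report them. The embryos were at E10.5, mid-gestation, and heterozygous for the transgene Tg(ETAR-EGFP)14Imeg, in both groups alike. Trypsin-dissociated otocyst cells were sorted by EGFP into an EGFP-positive group (EGFP+), which the labels place mainly in the ventral and dorsomedial otocyst, and an EGFP-negative group (EGFP-), which they associate with the dorsolateral wall. Each group is 1 array, hybridised with cRNA made from 1 µg of total RNA, so no difference can be set against a spread between samples and no p-value is given. The labels give neither the number of embryos pooled nor what drives EGFP beyond the transgene's name.

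Tight junctions seal the space between epithelial cells near their apical border. Claudins span the membrane and pair with claudins of the next cell, forming either barriers or pores selective for ions, while occludin and tricellulin add to the strand and to the points where cells meet. Scaffolds of the ZO family tie these proteins to actin, and the Par and Crumbs complexes set where along the cell the junction forms. In the inner ear such junctions separate endolymph from perilymph, and mutations of several of these genes cause deafness.

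Values are MAS5 signals, a linear intensity in arbitrary units that summarises all probe pairs of a probe set. Each gene was read from its brightest probe set over both arrays. Signals below a floor, the 40th percentile of each array, were raised to it before a ratio was taken. The floor was 10.4 for EGFP+ cells and 12.4 for EGFP- cells, where the brightest bacterial control probe set gave 12.3 and 9.0. A gene was called higher in a group when its signal there was at least 2 times the other, that is, a log2 ratio past 1 or -1. Between probe sets of 1 gene, the log2 ratio had an SD of 0.411 at mean signals under 50, 0.328 from 50 to 200 and 0.249 above 200. That SD is a partial measure of technical error and holds no variation between embryos or sorts.

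The 2 libraries differed in cell makeup as read from markers. Of 18 measured genes of general epithelium, such as those for E-cadherin and keratins, 15 were higher by 2-fold or more in EGFP+ cells and none in EGFP- cells, with a median log2 ratio of 1.36 and summed signals of 9453 against 3739. Of 13 measured otic epithelium markers, 7 were higher by 2-fold or more in EGFP+ cells and none in EGFP- cells. The other 6 were within 2-fold. Of these, Oc90 and Hmx3 were brighter in EGFP- cells, with 939.8 and 128.8 in EGFP+ and 1405.7 and 171.3 in EGFP- cells. The EGFP- library is labelled epithelial, yet 13 of 15 mesenchyme markers, 13 of 14 endothelium markers, 10 of 10 erythroid markers, 12 of 12 leukocyte markers and 10 of 12 neural tube markers were higher by 2-fold or more in it. The mesenchyme marker Col6a1 went the other way, with 360.7 in EGFP+ and 142.8 in EGFP- cells. Of neural crest and glia markers, 6 of 8 were higher in EGFP- and 1 in EGFP+ cells. At the EGFP+ floor lay 9 of 14 endothelium, 8 of 12 leukocyte, 9 of 12 neural tube, 6 of 10 erythroid and 2 of 15 mesenchyme markers. In sorted bulk RNA, fewer cells of a type and less RNA per cell cannot be told apart, and the part of cell makeup in the values that follow was not tested.

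**Figure D1:**
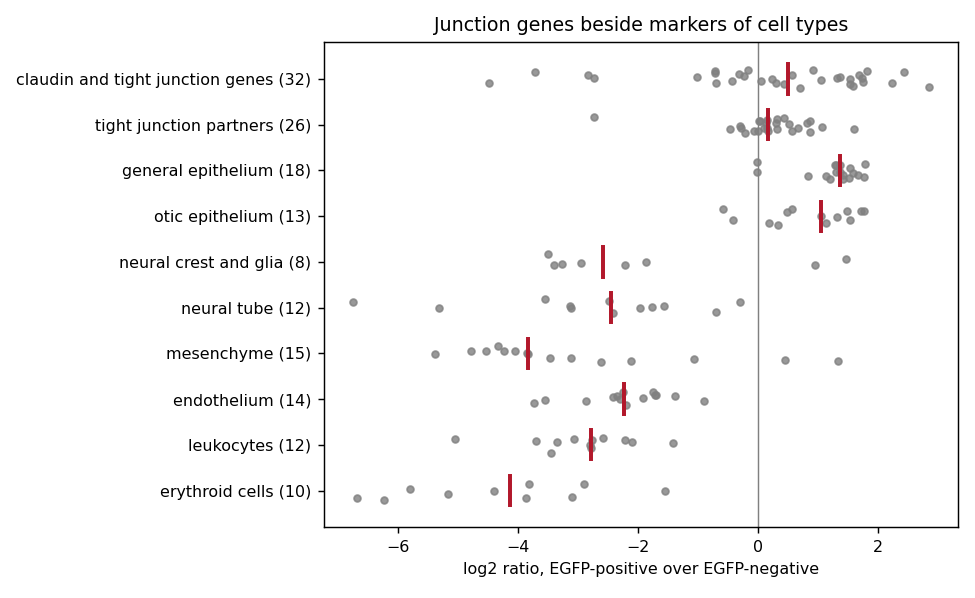
Log2 ratio of EGFP+ over EGFP- signal (horizontal axis) for the measured genes of each list, with the number measured in brackets; each grey point is 1 gene and each red bar the list's median. The general epithelium genes lie around 1.36 and the mesenchyme genes around -3.83, while the junction genes spread from -4.48 to 2.85 around a median of 0.50, which is -0.86 if the ratios are centred on the epithelium genes.

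Of the 35 genes, 32 were above the floor in at least 1 library and 26 in both. Among the 32, 13 were higher by 2-fold or more in EGFP+ cells, where the share over all 13363 genes so measured was 2.90%, and 5 were higher by 2-fold or more in EGFP- cells, where it was 7.63%. The other 14 did not pass 2-fold, and 3 of these had only a bound because EGFP+ cells were at the floor. The median log2 ratio was 0.50 over the 32, against 0.00 over all 13363 genes. Over the 26 it was 0.80, against 0.03 over the 11682 genes above the floor in both libraries. When ratios were centred on the general epithelium genes, the median of the 32 became -0.86, where the median of all genes was -1.36. On that scale 2 of the 32 were higher by 2-fold or more in EGFP+ cells, against 0.142% of all genes. In EGFP- cells 15 were, against 84.2% of all genes. The 13 higher genes were 7 claudins, occludin, tricellulin, Epcam, Tjp3, Pard6b and Crb3. The 5 lower genes were Cldn5, Cldn11, Cldn13, Marveld1 and Jam2. Of the 6 higher genes with several probe sets above the floor, 4 had all of them past 2-fold, the exceptions being Epcam and Crb3.

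**Figure D2:**
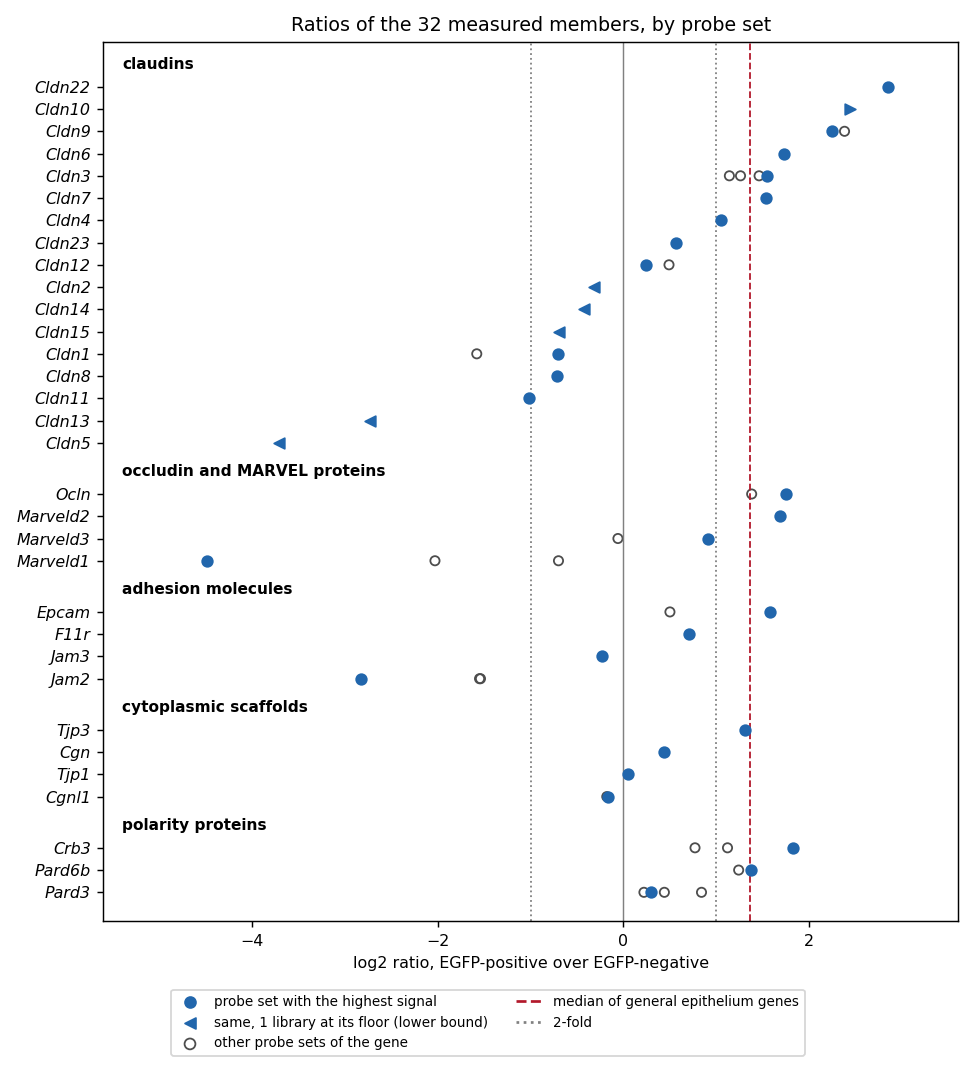
Log2 ratio of EGFP+ over EGFP- signal (horizontal axis) for the 32 measured junction genes by role; filled marks are the probe set with the highest signal, triangles are lower bounds with 1 library at its floor, and open circles are other probe sets above the floor. Cldn22 is highest at 2.85 and Marveld1 lowest at -4.48, and 11 of the 13 genes past 2-fold on the right lie within 1 unit of the epithelium median of 1.36, drawn as a dashed line.

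Claudins split in both directions. Of 17 measured claudins, 7 were higher by 2-fold or more in EGFP+ cells, where the share over all genes was 2.90%. In EGFP- cells 3 were higher by 2-fold or more, where that share was 7.63%, and 7 passed neither limit. The median log2 ratio of the 17 was 0.24. It falls below 0 when ratios are centred on the general epithelium genes, since this subtracts 1.36 from every ratio.

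Cldn6, a claudin of embryonic epithelia, had a signal of 1333.5 in EGFP+ and 401.2 in EGFP- cells, 3.32-fold higher. Cldn9 had 1114.0 against 236.1, 4.72-fold higher, and its second probe set had 234.2 against 45.1, a log2 ratio of 2.38. Loss of Cldn9 in mice causes deafness through the death of hair cells. Both Cldn9 probe sets lay above the epithelium median, the brighter by 0.88 on the log2 scale, whereas Cldn6 lay 0.37 above it. The epithelium genes themselves ranged from -0.01 to 1.78. The 2 genes are next to each other in the annotation, with no protein-coding gene between them.

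Cldn3, Cldn4 and Cldn7 are claudins of many simple epithelia. The brightest probe set of Cldn3 had 463.6 in EGFP+ and 159.5 in EGFP- cells, 2.91-fold higher, and its 4 probe sets had log2 ratios from 1.14 to 1.54. Cldn7 had 649.6 against 225.2, 2.88-fold higher. Cldn4 had 284.0 against 137.2, 2.07-fold higher, just past the limit. It fell to 0.97 on the log2 scale with a pseudocount of 16 in place of the floor, and to -0.31 when centred on the epithelium genes. Cldn3 and Cldn7 thus stood near the epithelium median and Cldn4 at the low side of it.

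The largest claudin ratios belonged to genes close to the floor in EGFP- cells. Cldn22 had 187.1 in EGFP+ and 25.9 in EGFP- cells, 7.22-fold higher, and was past 2-fold in all 10 alternative settings, centring on epithelium included. Cldn10, which encodes claudins that form ion-selective pores, had 67.5 against 7.2. The second value is under the floor, so Cldn10 was at least 5.44-fold higher. With the floor at the 60th percentile its log2 bound was 0.85, and its only probe set is of the _s_at kind, whose probes can match several transcripts. Cldn22 and Cldn10 were the 2 members that stayed past 2-fold in EGFP+ cells after centring on the epithelium genes, at 1.49 and 1.09.

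A second set of claudins did not pass 2-fold on their brightest probe sets. Cldn12, a widely expressed claudin, had 755.7 in EGFP+ and 638.9 in EGFP- cells, a log2 ratio of 0.24, and its other probe set was at 0.49. Cldn23 had 19.4 against 13.1, both close to the floor. Cldn8, known from kidney tubules, had 51.2 against 84.5, a log2 ratio of -0.72. Cldn1, a claudin of the skin barrier, had 34.1 against 55.9 on its brightest probe set, at -0.71, and 6.5 against 31.2 on another, the 6.5 being under the floor. Averaged over these probe sets Cldn1 was at -1.15, past 2-fold. Cldn1 and Cldn8 were thus brighter in EGFP- cells, the opposite of Cldn3, Cldn6 and Cldn7, and on their brightest probe sets by less than 2-fold.

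The 3 claudins higher by 2-fold or more in EGFP- cells are known from tissues other than otic epithelium. Cldn5, the main claudin of endothelium and of the blood-brain barrier, had 135.7 in EGFP- and 2.2 in EGFP+ cells. Endothelium markers had summed signals of 967 and 159 in the same libraries, with Cdh5, Pecam1, Tie1 and Flt1 among the 9 at the EGFP+ floor, and their part in the Cldn5 value was not tested. Cldn13, a claudin of rodents reported in blood-forming cells, had 69.1 against 5.5. Erythroid markers summed to 21569 in EGFP- and 3007 in EGFP+ cells, with Alas2, Klf1 and Gata1 at the EGFP+ floor, and their part was not tested either. Cldn11, a claudin of myelin, testis and the basal cells of the stria vascularis, had 22.1 against 10.9. The EGFP+ signals of all 3 are at or below the highest bacterial control, so no fold is given. Cldn11 stayed brighter in EGFP- cells but fell short of 2-fold when the EGFP+ floor was set at that control, at -0.85. The same held after quantile normalization, at -0.77, and with a pseudocount of 16, at -0.50.

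The remaining claudins were near or below the floor. Cldn14, a deafness gene of the organ of Corti, had 10.4 in EGFP+ and 14.0 in EGFP- cells. Cldn15 had 4.5 against 16.8 and Cldn2 had 2.9 against 13.0 on its brighter probe set, both being claudins that form cation pores in gut and kidney. Cldn16 and Cldn19, which act together in magnesium transport of the kidney, had 1.2 and 6.1 in EGFP+ and 2.5 and 2.7 in EGFP- cells. Cldn18, a claudin of lung and stomach, had 7.5 against 8.1. These 3 were at the floor in both libraries, so neither a level nor a difference could be read for them, and a signal at the floor does not show that a transcript is absent.

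**Figure D3:**
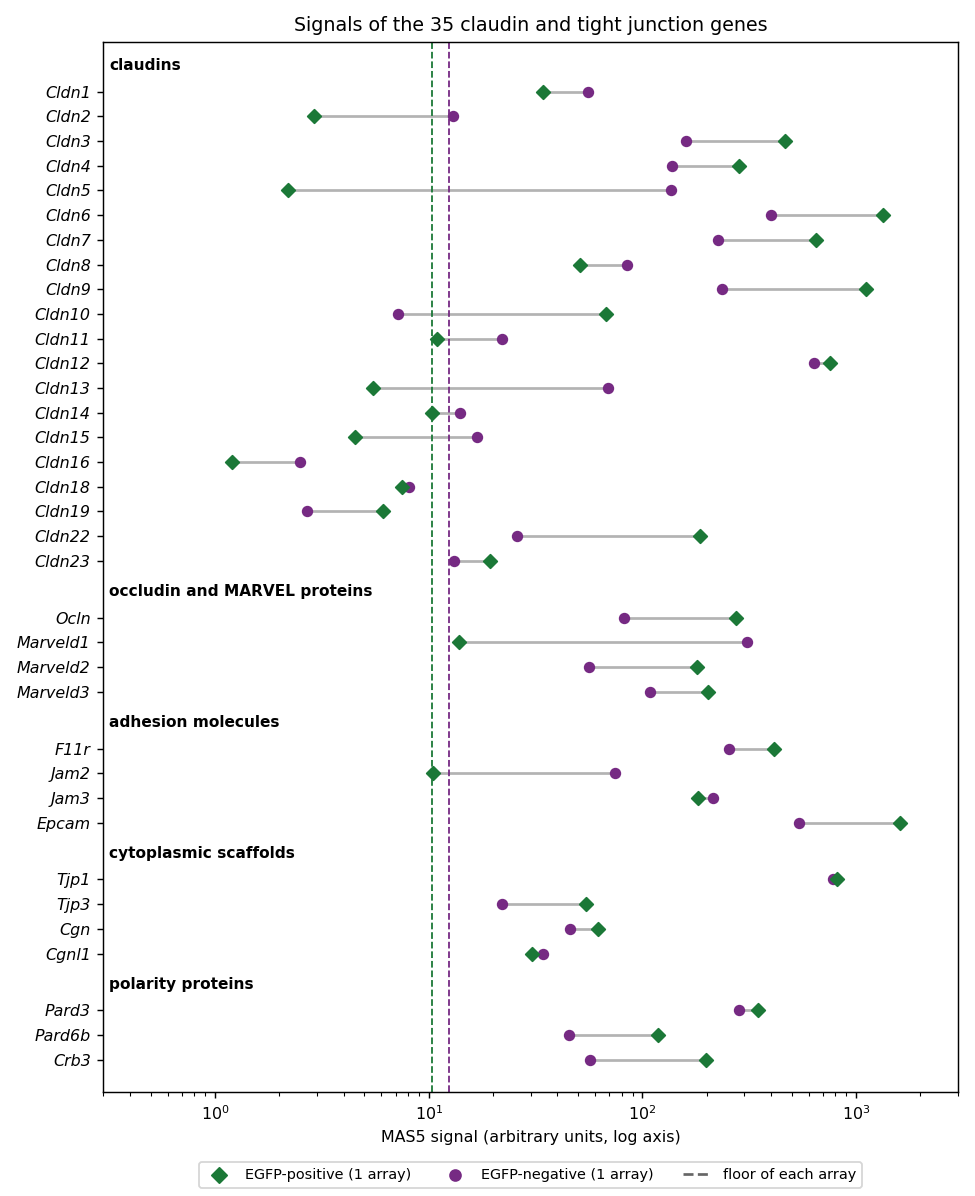
MAS5 signal (horizontal log axis, arbitrary units) of all 35 genes by role, from the probe set with the highest signal; green diamonds are the EGFP+ array, purple circles the EGFP- array, and dashed lines the floor of each. Cldn6, Cldn9 and Epcam are the brightest in EGFP+ cells, at 1333.5, 1114.0 and 1609.9, Cldn5 and Cldn13 are under the floor there, and Cldn16, Cldn18 and Cldn19 are under it in both.

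Among the MARVEL proteins, the tight junction members and Marveld1 went in opposite directions. Occludin (Ocln) had a signal of 274.9 in EGFP+ and 81.7 in EGFP- cells, 3.36-fold higher, and its second probe set, at 114.2 against 43.8, was past 2-fold too. Marveld2 encodes tricellulin, which sits where 3 cells meet and is a deafness gene, and had 180.3 against 56.2, 3.21-fold higher. Ocln and Marveld2 are neighbours in the annotation. Marveld3 had 203.5 against 108.3, a log2 ratio of 0.91, but a weaker probe set with 18.4 against 19.2 was at -0.06. Occludin and tricellulin rank beside Cldn6 in their ratio, and Marveld3 lies below them.

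Marveld1 has the same membrane domain but is not counted among the tight junction proteins. Its brightest probe set had 13.8 in EGFP+ and 308.5 in EGFP- cells, 22.4-fold higher in the latter. The next had 11.4 against 46.4 and 7.0 against 16.9, with EGFP+ signals below the highest bacterial control, so no ratio is given for them, and the fourth was under the floor in both libraries. The 3 probe sets above the floor were thus all brighter in EGFP- cells, but only the brightest gives a size, and its EGFP+ signal is close to that control. Its log2 ratio of -4.48 became -3.21 under a floor raised to the 60th percentile and -3.44 with a pseudocount of 16, and the mean over probe sets was -2.40. The brightest is of the _x_at kind, whose probes may hybridise with other transcripts, and without such probe sets Marveld1 rests on the 11.4 against 46.4. Mesenchyme markers summed to 10639 in EGFP- and 2405 in EGFP+ cells, with Col1a1 and Twist2 at the EGFP+ floor but Col6a1 higher in EGFP+ cells. The part of mesenchyme in the Marveld1 value was not tested.

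Of the adhesion molecules, Epcam, which holds epithelial cells together and stabilises claudin 7, had the brightest signals of the list. It had 1609.9 in EGFP+ and 538.6 in EGFP- cells, 2.99-fold higher, while a weaker probe set with 71.1 against 50.2 had a log2 ratio of 0.50. F11r encodes JAM-A, the junctional adhesion molecule of epithelium, and had 412.5 against 254.7, a log2 ratio of 0.70. Jam3 had 182.8 against 214.3, a log2 ratio of -0.23. Jam2, known from endothelium, had 74.6 in EGFP- cells on its brightest probe set and, in EGFP+ cells, a signal just over the floor and below the highest bacterial control. The other 2 probe sets of Jam2 above the floor had 15.2 against 44.2, a log2 ratio of -1.54, and 11.2 against 32.8, the 11.2 being below that control too. The 3 JAM genes were thus ordered with F11r towards EGFP+ cells, Jam3 near 0 and Jam2 towards EGFP- cells. Markers of endothelium, mesenchyme, leukocytes, erythroid cells and neural tube were mostly higher in EGFP- cells as well, and their part in the Jam2 value was not tested.

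The scaffolds varied less than the membrane proteins. Tjp1, which encodes ZO-1, had 811.9 in EGFP+ and 784.3 in EGFP- cells, a log2 ratio of 0.05. Tjp3 encodes ZO-3, a form largely limited to epithelia, and had 54.6 against 22.0, 2.48-fold higher. That value fell to 0.54 on the log2 scale under a floor raised to the 60th percentile, to 0.89 with a pseudocount of 16 and to -0.05 when centred on the epithelium genes. Cingulin (Cgn) had 61.9 against 45.7, a log2 ratio of 0.44, and paracingulin (Cgnl1) had 30.6 against 34.4, at -0.17. The ZO-1 signal, bright in both libraries, differed by less than the probe set SD of 0.249, whereas ZO-3 was past 2-fold.

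Of the polarity genes, Crb3 encodes the epithelial Crumbs protein and had 199.2 in EGFP+ and 56.6 in EGFP- cells, 3.52-fold higher. Its other probe sets had 119.8 against 55.2 and 146.9 against 86.4, and the last of these was at 0.77, within 2-fold. Without _s_at probe sets the Crb3 value was that 0.77. Pard6b, an adaptor of the Par complex, had 117.8 against 45.6, 2.58-fold higher, and 93.2 against 39.5 on its second probe set. Pard3, the scaffold of the same complex, had 348.5 against 282.6, and its 4 probe sets lay between 0.22 and 0.84. Pard3 and Tjp1 were therefore within 2-fold while Pard6b, Crb3 and Tjp3 were past it.

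Other genes of the junction were read from a list of 30 partners, of which 27 had a probe set and 26 were above the floor in at least 1 library. Lsr and Patj were higher by 2-fold or more in EGFP+ cells, 2 of the 26, where the share over all genes was 2.90%. Ildr2 was higher by 2-fold or more in EGFP- cells, 1 of the 26, where that share was 7.63%. The other 23 did not pass 2-fold. The median log2 ratio was 0.16, against 0.00 over all genes. It was -1.20 when centred on the epithelium genes, where the median of all genes was -1.36. Lsr, Ildr1 and Ildr2 encode the angulins, which bring tricellulin to the points where cells meet. Lsr had 301.0 in EGFP+ and 99.6 in EGFP- cells, 3.02-fold higher. Ildr1, a deafness gene, had 22.5 against 10.0, the latter under the floor, so its log2 ratio of 0.86 is a lower bound and a 2-fold difference cannot be read either way. Ildr2 went the other way, with 25.2 against 166.7, and both its probe sets above the floor were past 2-fold. Patj, the partner of Crumbs proteins through Pals1, had 150.3 against 71.8, with its 3 probe sets between 1.07 and 1.31. The Par complex kinase genes Prkci and Prkcz had log2 ratios of -0.07 and 0.67, and Pals1 was at 0.02. The 26 partners ranged from -2.73 for Ildr2 to 1.60 for Lsr, and Crb1, next above Ildr2, was at -0.46.

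Transcription factors known to act on junction genes fell on both sides. Grhl2, an activator of epithelial genes, and Ovol2 were higher by 2-fold or more in EGFP+ cells. Grhl2 had 300.5 against 129.8, a log2 ratio of 1.21, but its 4 probe sets ranged from -0.92 to 1.21, and Ovol2 had 39.3 against 14.5. Snai1, Snai2, Zeb1 and Zeb2, repressors of epithelial genes, were all higher by 2-fold or more in EGFP- cells. Snai2 had 550.8 in EGFP- and 144.7 in EGFP+ cells, 3.81-fold higher, and Zeb1 had 470.8 against 164.0, 2.87-fold higher with 1 probe set at -0.94. Snai1 and Zeb2 were 2.98-fold and 2.26-fold higher. Of mesenchyme markers, 13 of 15 were 2-fold or more brighter in EGFP- cells too, and 1 was so in EGFP+ cells. The same held in EGFP- cells for 13 of 14 endothelium and 10 of 12 neural tube markers. It also held for 6 of 8 neural crest and glia markers, with 1 the other way. The part of these cell types in the repressor values was not tested. The 3 other regulators did not pass 2-fold on the floored scale. Grhl1 was at 0.71, while Ovol1, with 15.6 against 7.5, and Grhl3, with 7.1 against 17.3, each had 1 signal under the floor, which bounds their difference only from below.

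Because Snail and Zeb proteins bind the E-box CAGGTG, it was searched for in the promoters of the members and of all genes. RefSeq promoters of GRCm38.p6, from 250 bases before to 50 after the most upstream start listed, were held for 28 of the 35 genes. CAGGTG on either strand occurred in 10 of these 28, 35.7%, and in 5418 of 27025 promoters of all genes, a share of 20%. The 10 were Cldn3, Cldn4, Cldn6, Crb3, Epcam, F11r, Marveld2, Ocln, Pard6b and Tjp3, so it occurred in 9 of the 12 promoters of genes higher by 2-fold or more in EGFP+ cells and in 1 of the other 16. Among those 16, the windows of Cgn, Cgnl1, Pard3 and Tjp1 lay inside the annotated gene. For these genes the stretch before the annotated start was not searched, so the 12 and the 16 are not fully alike. The median GC content of those 12 promoters was 55.5%, of the other 16 it was 59.8% and of all promoters 52.7%. The Grainyhead motif AACCNGTT on either strand occurred in the windows of Cgn and Cldn5 alone, 7.14% against 2.02% of all. Only the Cldn5 match lay before the annotated start, since the Cgn window lay inside the gene. The GC box GGGCGG occurred in 18 of 28, 64.3% against 35.9%, and in 8 of the 12. The promoters and motifs were chosen with the signals known, these shares were not tested, and a match is a run of letters, not a shown binding site.

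In 7 members a CAGGTG match lay before the annotated start, and the sequences of the 6 that were higher by 2-fold or more in EGFP+ cells are shown, which leaves out F11r. They run 5′ to 3′ on the gene's strand up to its start, with CAGGTG or its reverse complement CACCTG in capitals. They lie at chr5:134946935-134947184 and chr10:81291582-81291831 on the minus strand for Cldn4 and Tjp3 and, on the plus strand, at chr17:23679115-23679347 for Cldn6, chr17:87635729-87635978 for Epcam, chr17:57061951-57062200 for Crb3 and chr2:168080754-168081003 for Pard6b.
Cldn4: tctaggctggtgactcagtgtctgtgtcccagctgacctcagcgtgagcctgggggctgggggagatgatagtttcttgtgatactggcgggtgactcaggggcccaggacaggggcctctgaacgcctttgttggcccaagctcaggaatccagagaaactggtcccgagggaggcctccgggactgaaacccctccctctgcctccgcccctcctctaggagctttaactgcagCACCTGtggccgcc
Tjp3: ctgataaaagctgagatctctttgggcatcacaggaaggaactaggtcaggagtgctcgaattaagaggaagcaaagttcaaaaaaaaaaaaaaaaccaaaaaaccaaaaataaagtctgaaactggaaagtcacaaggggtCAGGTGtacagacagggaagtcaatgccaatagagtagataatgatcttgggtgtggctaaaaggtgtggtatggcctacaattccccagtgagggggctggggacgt
Cldn6: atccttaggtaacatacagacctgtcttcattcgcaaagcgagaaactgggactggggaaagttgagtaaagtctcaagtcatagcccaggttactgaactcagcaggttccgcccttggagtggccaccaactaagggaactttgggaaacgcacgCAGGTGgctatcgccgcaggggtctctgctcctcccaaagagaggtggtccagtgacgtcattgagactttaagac
Epcam: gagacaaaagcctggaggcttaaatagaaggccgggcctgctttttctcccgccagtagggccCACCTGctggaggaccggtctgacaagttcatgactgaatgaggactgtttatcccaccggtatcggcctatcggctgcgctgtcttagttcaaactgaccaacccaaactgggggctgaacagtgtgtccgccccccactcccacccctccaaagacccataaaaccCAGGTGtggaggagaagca
Crb3: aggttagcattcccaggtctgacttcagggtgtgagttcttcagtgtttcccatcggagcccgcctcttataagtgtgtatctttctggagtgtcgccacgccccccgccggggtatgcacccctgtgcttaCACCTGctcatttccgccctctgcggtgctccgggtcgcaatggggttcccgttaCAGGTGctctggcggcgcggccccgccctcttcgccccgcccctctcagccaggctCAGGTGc
Pard6b: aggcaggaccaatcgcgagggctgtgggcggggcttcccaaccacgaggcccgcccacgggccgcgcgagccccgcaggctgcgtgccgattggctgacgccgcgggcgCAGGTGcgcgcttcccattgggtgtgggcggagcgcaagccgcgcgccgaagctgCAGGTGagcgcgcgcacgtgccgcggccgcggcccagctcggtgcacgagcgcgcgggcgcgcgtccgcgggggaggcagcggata
The match nearest a start began 7 bases before it in Crb3, which held 3, at 118, 63 and 7 bases. In Cldn4 it began 14 bases before, in Epcam 187 and 19, in Pard6b 141 and 86, in Tjp3 108 and in Cldn6 76. No 2 matches in these stretches overlap each other, and none of the 6 holds AACCNGTT. Cldn7, Cldn10 and Cldn22, also past 2-fold in EGFP+ cells, had no CAGGTG in the window searched.

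Members that are neighbours in the genome were compared, since 4 pairs stand next to each other among protein-coding genes. Cldn6 and Cldn9 on chromosome 17 had log2 ratios of 1.73 and 2.24, Cldn4 and Cldn3 on chromosome 5 had 1.05 and 1.54, and Ocln and Marveld2 on chromosome 13 had 1.75 and 1.68. These 3 pairs were higher in EGFP+ cells in both members, except that Cldn4 was at -0.31 after centring on the epithelium genes. In the fourth pair, on chromosome 16, Cldn1 was at -0.71 and Cldn16 was under the floor in both libraries. Cldn13 lies near Cldn4 on chromosome 5, with Mettl27 between them, and went the opposite way, with 5.5 in EGFP+ and 69.1 in EGFP- cells. Pairs were not tested against other neighbours.

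The junction genes were also read against epithelium in general. Centring on the 18 epithelium genes moved the median of all genes by 1.36 on the log2 scale. The 11 members that were past 2-fold before but not after this centring then lay between -0.31 for Cldn4 and 0.88 for Cldn9. On the same scale Tjp1 was at -1.31, Cldn12 at -1.12, Pard3 at -1.06 and F11r at -0.66, below Epcam at 0.22, Cldn7 at 0.17 and Pard6b at 0.01. So Tjp1 and Cldn12, both bright in both libraries, lay with the median of all genes, Epcam, Cldn3, Cldn7, Pard6b and Tjp3 lay near that of the epithelium list, and Cldn9, Cldn10 and Cldn22 lay above it.

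**Figure D4:**
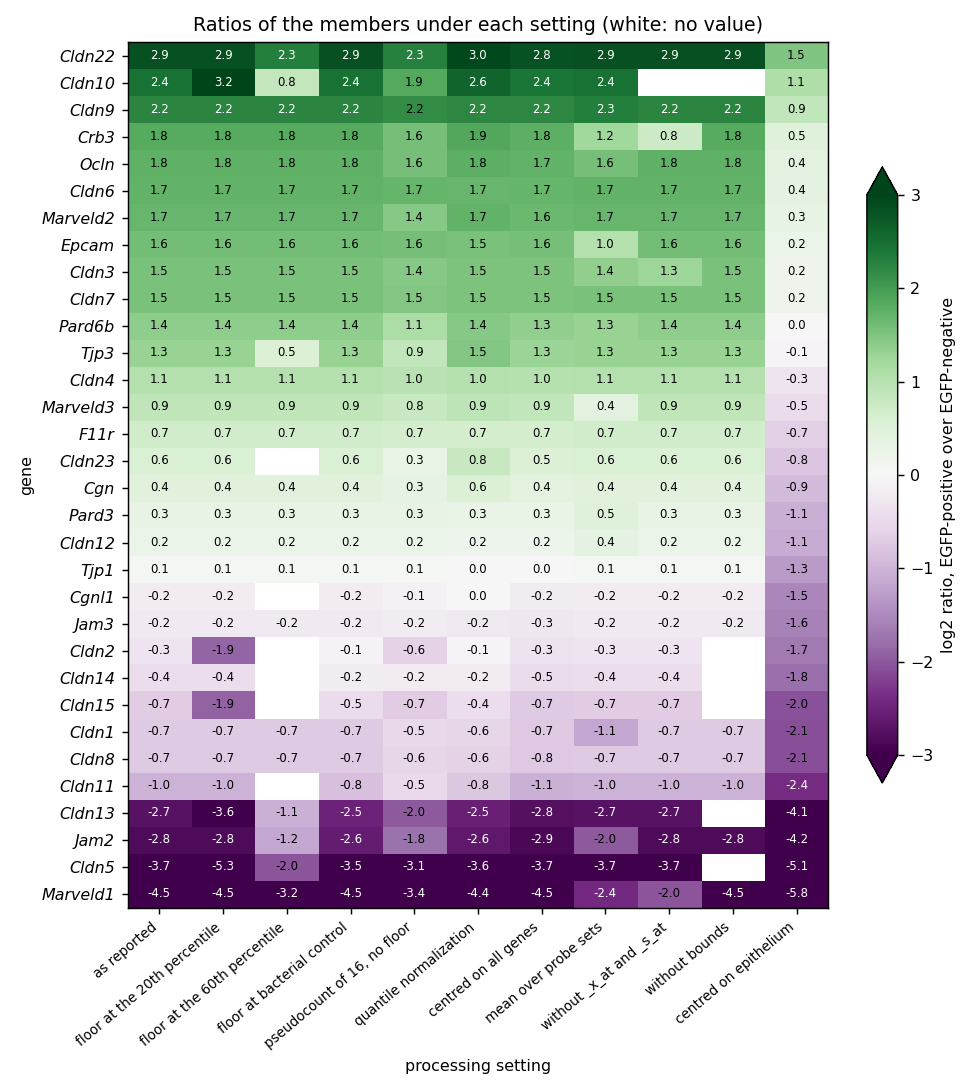
Log2 ratio of EGFP+ over EGFP- signal (colour and printed value) of the 32 measured genes (rows) under the reported and 10 other processing settings (columns); white cells hold no value. The 13 genes at the top stay above 0 wherever they have a value, except in the last column, where centring on epithelium brings Cldn4 to -0.31 and Tjp3 to -0.05 and leaves Cldn22 at 1.49.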

How the data were processed

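Intensities were deposited as MAS5 signals, 1 for each of 45101 probe sets on each of 2 Affymetrix arrays. The submitters' processing notes name MAS5 version 5.0. In both columns the mean after trimming 2% of values at each end was 100.0, which shows that the arrays share 1 overall scale. Detection calls were not used here. Gene names come from the platform annotation, with current symbols from the GRCm38.p6 RefSeq table. A single gene was named by 34958 probe sets. Those naming several, 932, and those unnamed here, 9211, were left out. No depth exists for arrays, and their number, 1 per group, limits the precision.

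Ratios, floors and medians were computed in Python 3.11.15 with numpy 2.4.6 and pandas 2.3.3, and the procedure was tested on simulated data. The 27 bacterial controls are the Dap, Lys, Phe, Thr and Trp probe sets. Every member is named. Of the partner and regulator lists, genes past 2-fold are named, with the remaining angulin, the Par and Crumbs partners and the other regulators added after their values were seen. The members and lists were chosen with earlier results of these data known. Alternatives were floors at the 20th and 60th percentiles, a pseudocount of 16, quantile normalization, 2 centrings, the mean over probe sets, leaving out _x_at and _s_at probe sets, and leaving out bounds. A floor at the highest bacterial control was added after seeing the data.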

Additional observations from a re-analysis of the deposited data

How the results depend on the processing

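No paired analysis was possible because each group holds 1 sample. Centring on the general epithelium genes changed most: 2 members instead of 13 were then higher by 2-fold or more in EGFP+ cells and 15 instead of 5 in EGFP- cells, the median log2 ratio of the members was -0.86 instead of 0.50, that of the partner list was -1.20 instead of 0.16, and Cldn4 and Tjp3 reversed to -0.31 and -0.05. This follows from its construction, which subtracts 1.36 from every ratio and puts the median of all genes at -1.36. Of all genes, 84.2% were then higher by 2-fold or more in EGFP- cells and 0.142% in EGFP+ cells. Leaving out genes at the floor in 1 array left 3 members higher in EGFP- cells, because Cldn5 and Cldn13 have no value there. In the other 8 settings, 11 to 13 members were higher in EGFP+ and 4 to 7 in EGFP- cells, and the median was 0.31 to 0.77. The shares over all genes in those settings were 1.78% to 4.31% and 4.65% to 11.8%. Signals near the floor limit Cldn10, Cldn11, Tjp3 and the low sides of Cldn5, Cldn13, Marveld1 and Jam2.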
